A study of Mus musculus with 16 samples.

Results

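The genes described here are 50 that act in S phase and mitosis, chosen by name from the Ensembl gene rows of an RNA sequencing count table, and all 50 were found among its 49585 genes. Transcripts were counted in the epidermis of hairless SKH-1 mice in 4 groups of 4 libraries each. Knockout epidermis came from mice labelled C/EBPB -/-, with an epidermis-specific deletion of C/EBPβ, a leucine zipper transcription factor of keratinocytes, sampled 6 h after 100 mJ/cm2 of ultraviolet B (UVB). Control epidermis came from mice labelled K5Cre, sampled in the same way 6 h after the same dose. The remaining 2 groups were knockout and control epidermis left unexposed. All mice were 8 to 12 weeks old and all epidermis was separated by heat shock. The labels do not spell out the Cre driver, whether the knockout mice carry the same Cre, or which libraries came from separate animals, so the p-values measure the spread between these libraries.

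A dividing cell passes from G1 into S phase when D and E cyclins and their kinases release E2F transcription factors, which switch on the genes for copying DNA. In G2 and mitosis, cyclins A and B, Cdk1, FOXM1 and B-MYB drive a later set of genes for spindles, kinetochores and chromosome separation, which a ubiquitin ligase then ends. In normal epidermis division takes place mainly in the basal layer, and DNA damage by UVB activates p53, whose target Cdkn1a encodes the kinase inhibitor p21.

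The libraries held 33.0 to 53.3 M counts, and levels are given as CPM, counts scaled to a common library size after correction by trimmed mean of M values (TMM). Cebpb, the deleted gene, stood at 0.609 to 3.03 CPM in exposed knockouts against 253 to 320 CPM in exposed controls, and at 0.177 to 0.875 CPM in unexposed knockouts against 155 to 186 CPM in unexposed controls. Of the 50 genes, 49 passed the filter on low counts, with 17741 genes tested in all. The exception was Cdt1, which loads the replicative helicase, and it had 0 counts in all 16 libraries. Sbsn, a marker of spinous and granular keratinocytes, was likewise at 0 in 14 of the 16. Whether the Cdt1 transcript was absent or its reads were not assigned to it was not tested. Fold changes and adjusted p-values come from edgeR's quasi-likelihood test over all 16 libraries with Benjamini-Hochberg adjustment over the 17741 genes, and a gene is said to rise or fall where its adjusted p is under 0.05.

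Relative to exon length, most of the 49 genes were expressed at low levels. Averaged over the 16 libraries, E2f2 (8.54 CPM per kb of exon), Ccnd1 (8.15) and Ccnd2 (7.5) were the most abundant per length. Gins1 (4.86), Cdc20 (4.80) and Mcm7 (4.73) came next and lay close together. The mitotic genes Bub1 (0.238 CPM per kb), Ccnb1 (0.4), Foxm1 (0.418) and Kif20a (0.436) were the least abundant. In several of these low genes single libraries had no counts, among them Ccnb1 and Plk1 in exposed controls, and their intervals are correspondingly wide. The plot of all members by library shows how the values varied within each group.

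**Figure D1:**
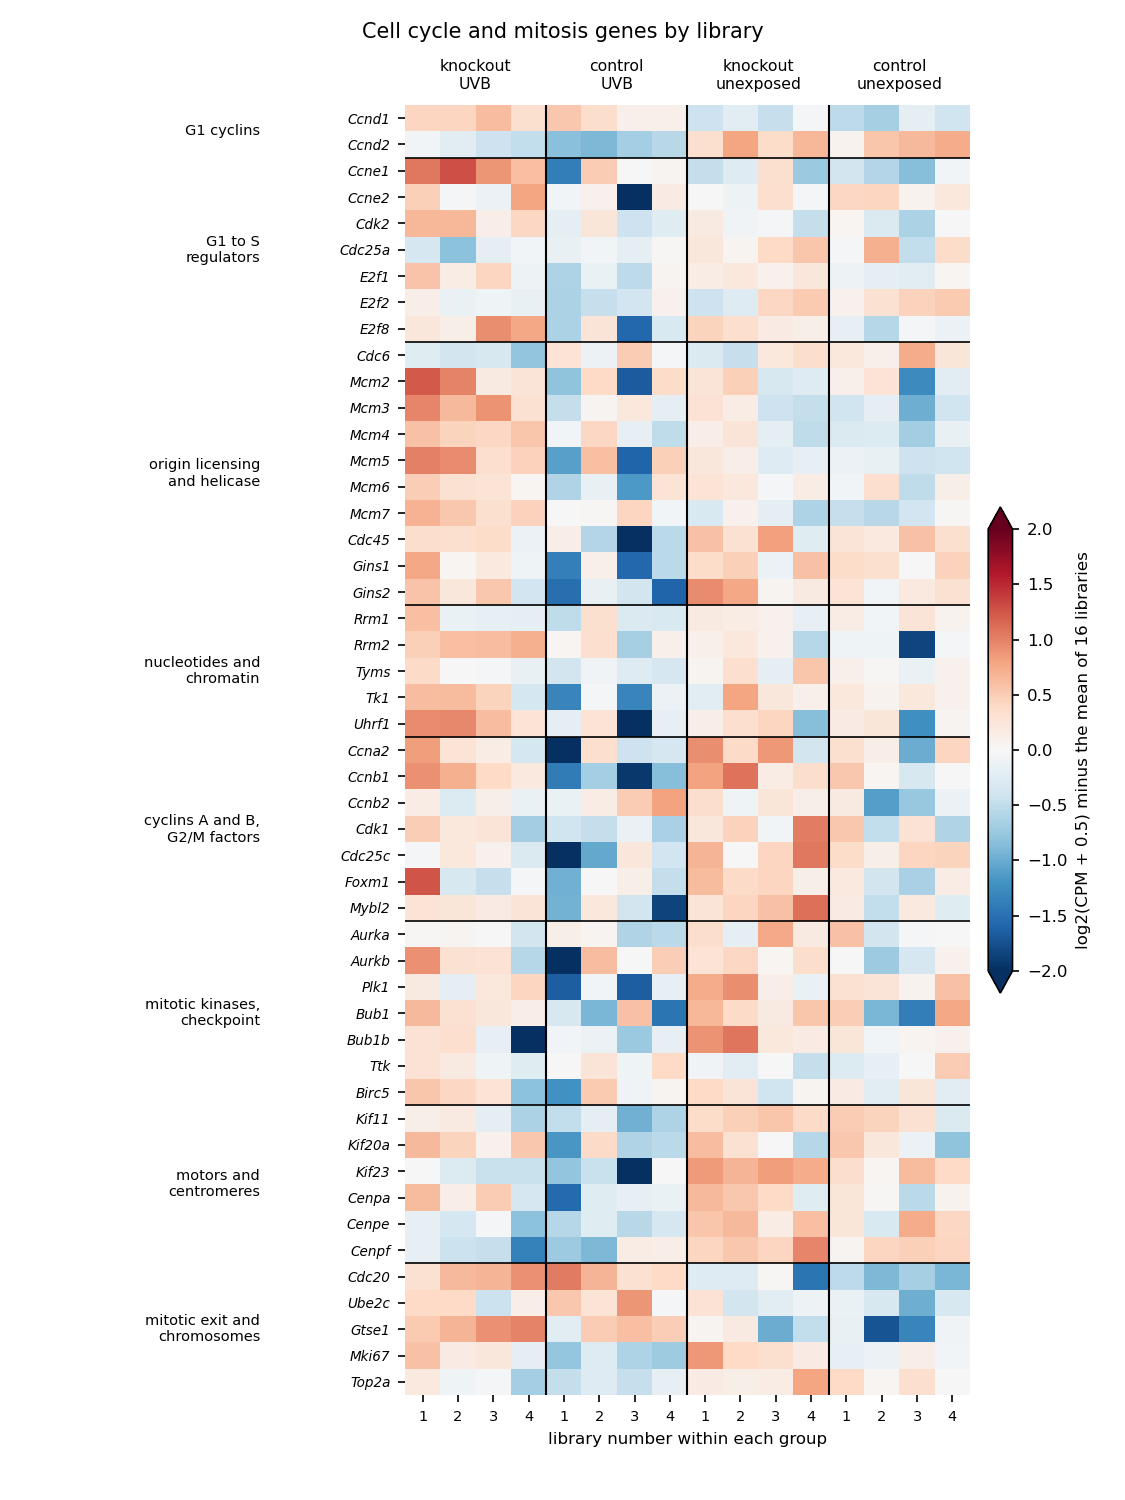
Level of each of the 49 tested genes (rows, by role) in each of 16 libraries (columns, by group), as log2(CPM + 0.5) minus the gene's mean over the 16 libraries, with the colour scale ending at -2 and 2. Ccnd1, Cdc20 and Gtse1 were mostly above their mean in the 8 exposed libraries, whereas Ccnd2, Kif23 and Cenpe were mostly below it, and exposed control libraries 1 and 3 had the lowest summed levels, 365 and 366 CPM.

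The main genes lie, in GENCODE M21 (GRCm38) on the minus strand, at chr7:144929931-144939925 (Ccnd1), chr6:127125162-127152193 (Ccnd2), chr5:138164583-138172422 (Mcm7), chr13:100778650-100786570 (Ccnb1), chr9:61915905-61946774 (Kif23), chr4:118432901-118437352 (Cdc20) and chr7:135689784-135716361 (Mki67). Many promoters of cell cycle genes carry letters known for cell cycle timing. RefSeq (GRCm38.p6) start-site windows, 250 bases before to 50 bases after the start, were matched by symbol for 39 of the 50 genes and searched on both strands, and a gene was counted if any of its windows held the letters. Ccnd1 and Ccnd2 are among the 11 with no window, and the windows of Ccne1, E2f1, Tyms, Tk1, Mybl2 and Birc5 held none of the motifs searched. The cell cycle homology region (CHR, TTTGAA or TTCGAA), bound by DREAM and MuvB complexes in G2/M genes, was found in 20 of the 39 windowed genes (51.3%), against 21.7% of all 27025 genes with a window. It was in 15 of 20 G2 and mitosis genes and in 5 of 19 G1 and S phase genes. The CCAAT box bound by NF-Y was found in 31 of the 39 (79.5%), against 41.1% of all genes. An E2F site (TTTCCCGC, TTTGGCGC or GGCGGGAA, the last overlapping the reverse complement of the first) was found in 11 of the 39 (28.2%), against 3.69% of all genes. All 11 were G1 and S phase genes. A C/EBP motif (TTGCGCAA, TTGCATCA or TTGCAACA) was found in 1 gene, Mcm2 (2.56%), against 2.08% of all genes. These matches are descriptions of letters, not of binding.

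The 4 windows below are shown because Cdc20 rose and Kif23 fell after UVB in both genotypes, and because Ccnb1 and Mki67 passed between the genotypes after UVB, Ccnb1 with a call that was lost without some single libraries. Capitals mark CCAAT boxes (CCAAT, or ATTGG on the other strand) and CHR letters, and all 4 are read from the minus strand of GRCm38.p6. The windows are chr4:118437294-118437593 for Cdc20, chr9:61946750-61947049 for Kif23, chr13:100786437-100786736 for Ccnb1 and chr7:135716330-135716629 for Mki67.
Cdc20: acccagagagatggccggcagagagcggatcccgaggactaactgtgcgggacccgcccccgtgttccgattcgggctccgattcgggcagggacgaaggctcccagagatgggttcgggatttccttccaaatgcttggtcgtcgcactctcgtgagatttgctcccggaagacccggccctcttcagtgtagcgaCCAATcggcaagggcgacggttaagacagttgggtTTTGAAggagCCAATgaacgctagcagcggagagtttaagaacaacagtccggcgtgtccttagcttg
Kif23: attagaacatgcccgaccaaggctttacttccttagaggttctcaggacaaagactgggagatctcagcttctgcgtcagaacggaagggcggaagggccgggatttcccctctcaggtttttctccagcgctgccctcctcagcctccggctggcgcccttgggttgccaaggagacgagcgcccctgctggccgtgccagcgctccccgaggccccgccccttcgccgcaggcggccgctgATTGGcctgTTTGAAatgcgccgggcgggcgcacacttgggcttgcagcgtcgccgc
Ccnb1: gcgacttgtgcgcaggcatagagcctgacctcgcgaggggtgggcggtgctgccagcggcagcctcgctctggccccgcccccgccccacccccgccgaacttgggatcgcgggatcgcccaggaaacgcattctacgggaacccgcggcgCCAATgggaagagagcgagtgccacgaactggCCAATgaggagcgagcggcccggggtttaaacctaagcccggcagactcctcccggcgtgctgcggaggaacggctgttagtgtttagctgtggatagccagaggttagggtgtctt
Mki67: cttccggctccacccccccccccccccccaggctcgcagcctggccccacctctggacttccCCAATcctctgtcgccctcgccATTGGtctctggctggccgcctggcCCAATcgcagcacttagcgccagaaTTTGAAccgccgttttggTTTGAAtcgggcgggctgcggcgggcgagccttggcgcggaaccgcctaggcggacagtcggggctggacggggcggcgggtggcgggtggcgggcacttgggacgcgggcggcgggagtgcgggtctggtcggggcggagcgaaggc
The Cdc20 and Kif23 windows each hold a CHR close to a CCAAT box near the start site, although the transcripts moved in opposite directions after UVB. The Ccnb1 window holds 2 CCAAT boxes and no CHR letters, and the Mki67 window holds 3 CCAAT boxes and 2 CHR motifs.

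The UVB comparisons asked how irradiation changed these transcripts within each genotype. After UVB the genes did not move as a block. In knockout epidermis 7 of 49 rose (14.3%) and 5 fell (10.2%), against 18.1% and 14.1% of all tested genes. In control epidermis 4 rose (8.16%) and 9 fell (18.4%), against 17.7% and 18.0% of all tested genes. All 4 shares were near or below those of all tested genes. Ccnd1, Cdc20 and Gtse1 rose in both genotypes, which is 3 of the 7 genes that rose in knockouts and 3 of the 4 in controls. Ccnd2, Kif23 and Cenpe fell in both, which is 3 of 5 and 3 of 9. The median log2 fold change was -0.09 in knockouts and -0.33 in controls, against 0.01 and -0.02 over all tested genes. Leaving out single libraries gave 7 to 11 called genes in knockouts and 8 to 16 in controls. In knockouts 3 rose and 5 fell without exposed library 1, 3 rose and 4 fell without unexposed library 4, and 4 rose without exposed library 2, 3 or 4 or unexposed library 3. In controls 2 rose and 6 fell without unexposed library 3, 2 rose and 9 fell without exposed library 3, and 6 fell without exposed or unexposed library 1.

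The D cyclins, which answer growth signals in G1, moved in opposite directions. Ccnd1 stood at 49.8, 49.7, 57.0 and 46.0 CPM in exposed knockouts against 27.6, 31.8, 26.8 and 36.4 CPM in unexposed knockouts. Exposed controls had 54.1, 47.4, 39.6 and 39.7 CPM against 25.4, 23.0, 32.0 and 27.8 CPM in unexposed controls. Every exposed library was above every unexposed library of its genotype, and the rise was 0.73 on the log2 scale in knockouts (SE 0.14, edgeR adjusted p = 0.000548) and 0.74 in controls (SE 0.15, adjusted p = 0.000404). Ccnd2 stood at 62.7, 56.4, 48.6 and 46.1 CPM in exposed knockouts against 81.2, 113, 84.2 and 104 CPM in unexposed knockouts. In exposed controls it stood at 36.3, 34.7, 40.5 and 44.5 CPM against 68.2, 96.4, 103 and 109 CPM in unexposed controls. Here every exposed library was below every unexposed one, and Ccnd2 fell by 0.84 in knockouts (SE 0.15, adjusted p = 0.000253) and by 1.27 in controls (SE 0.16, adjusted p = 2.57e-06). These calls held in each of the 8 fits per genotype that left out a library. An exon of LTO1 on the opposite strand covers 23.4% of the Ccnd1 exon bases, and the labels do not say if reads were assigned by strand.

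Among the regulators of entry into S phase, cyclin E1, its kinase and 2 others were called. Ccne1, which encodes cyclin E1, stood at 3.39, 4.09, 2.97 and 2.35 CPM in exposed knockouts against 0.849, 1.08, 1.85 and 0.625 CPM in unexposed knockouts. The groups did not overlap, and Ccne1 rose by 1.53 (SE 0.56, edgeR adjusted p = 0.0421). Exposed controls had 0.222, 2.17, 1.40 and 1.46 CPM against 0.965, 0.753, 0.546 and 1.31 CPM in unexposed controls, a difference of 0.55 that did not pass (SE 0.56, adjusted p = 0.492). Its partner kinase gene Cdk2 averaged 17.5 ± 3.01 CPM in exposed and 11.7 ± 2.20 CPM in unexposed knockouts (SD, n = 4 each), and rose by 0.58 (SE 0.21, adjusted p = 0.0372). Cdc25a, the phosphatase that activates Cdk2, averaged 7.95 ± 1.82 CPM in exposed and 12.8 ± 1.95 CPM in unexposed knockouts, and fell by 0.68 (SE 0.24, adjusted p = 0.0324). In controls Cdk2 differed by 0.07 (adjusted p = 0.835) and Cdc25a by -0.31 (adjusted p = 0.338). E2f2, an activating E2F, averaged 32.2 ± 7.42 CPM in exposed and 51.7 ± 6.83 CPM in unexposed controls, and fell by 0.68 (SE 0.19, adjusted p = 0.00883). In knockouts it differed by -0.18 (adjusted p = 0.548). The 3 knockout calls were fragile: of 8 fits that left out a library, Ccne1 kept its call in 1 (adjusted p 0.0282 to 0.131), Cdk2 in 2 (0.0233 to 0.171) and Cdc25a in 4 (0.0215 to 0.124). Without unexposed knockout library 4, for example, Ccne1 gave 1.30 (adjusted p = 0.131) and Cdk2 0.42 (adjusted p = 0.171), while the E2f2 call held in all 8. Ccne1 and Cdk2 were also not called with scaling by library size alone (adjusted p = 0.0724 and 0.16), with upper-quartile scaling (0.056 and 0.073) or with no count filter (0.0866 and 0.104). The other genes of this role did not pass: in knockouts Ccne2 differed by 0.31, E2f1 by 0.12 and E2f8, a repressive E2F, by 0.29, and in controls they differed by -0.66, -0.18 and -0.23. Exposed control library 3 had no Ccne2 counts.

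Of the 10 tested genes that license origins and unwind DNA, 2 rose in knockouts and 1 fell in controls. The MCM2 to MCM7 helicase subunits gave log2 differences of 0.14 to 0.86 in knockouts and of -0.33 to 0.45 in controls. Mcm7 stood at 33.0, 29.5, 25.3 and 27.9 CPM in exposed knockouts against 16.2, 21.4, 17.8 and 12.9 CPM in unexposed knockouts. These libraries did not overlap, and Mcm7 rose by 0.76 (SE 0.18, edgeR adjusted p = 0.00207), a call that held in all 8 fits without a library. Among controls, the exposed had 20, 20.6, 27.2 and 19.3 CPM against 14.5, 13.6, 15.3 and 20.5 CPM in unexposed controls, where 0.45 did not pass (SE 0.18, adjusted p = 0.0538) but was called with DESeq2 (0.0426), with a stricter count filter (0.0319) and without exposed library 4 (0.0439) or unexposed library 4 (0.0199). Mcm3 averaged 9.40 ± 1.94 CPM in exposed and 5.16 ± 1.51 CPM in unexposed knockouts and rose by 0.86 (SE 0.27, adjusted p = 0.0191), but kept its call in 4 of 8 fits without a library (adjusted p up to 0.0899 without unexposed library 4) and lost it with library size alone (0.0746) and with no count filter (0.0548). Mcm2 differed by 0.71 in knockouts and -0.03 in controls, and Mcm6 by 0.14 and -0.33, without passing. The proteins that join MCM at the fork are CDC45 and the GINS complex. Gins1 stood at 2.33, 7.28, 1.95 and 4.52 CPM in exposed controls against 8.93, 8.55, 6.73 and 9.47 CPM in unexposed controls. It fell by 1.06 (SE 0.33, adjusted p = 0.0164) although exposed library 2 lay within the unexposed range, and the call was lost without exposed library 1 (adjusted p = 0.0557) or 3 (adjusted p = 0.0503). Cdc45 (-1.10, adjusted p = 0.0914) and Gins2 (-1.21, adjusted p = 0.0522) did not pass in controls, and in knockouts the 3 genes gave -0.09, -0.19 and -0.29. In controls Gins2 was called with DESeq2 (-1.21, adjusted p = 0.0274), library size alone (-1.37, 0.0389), limma voom (-1.47, 0.0488) and upper-quartile scaling (-1.25, 0.0454), and without exposed library 2 (-1.71, 0.0131) or 3 (-1.43, 0.0346). Cdc45 was called in controls with limma voom (-1.68, adjusted p = 0.0296) and without exposed library 1 (-1.57, 0.0245). The Gse1 gene on the opposite strand covers 67.3% of the Gins2 exon bases. Cdc6, which loads MCM together with Cdt1, differed by -0.42 in knockouts and -0.17 in controls. None of the 5 genes for nucleotide supply and replicated chromatin passed in either genotype. Rrm2, a ribonucleotide reductase subunit, differed by 0.64 in knockouts (adjusted p = 0.131) and 0.36 in controls (adjusted p = 0.402), and the other 4 (Rrm1, Tyms, Tk1 and Uhrf1) ranged from -0.16 to 0.67 and from -0.79 to -0.24.

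**Figure D2:**
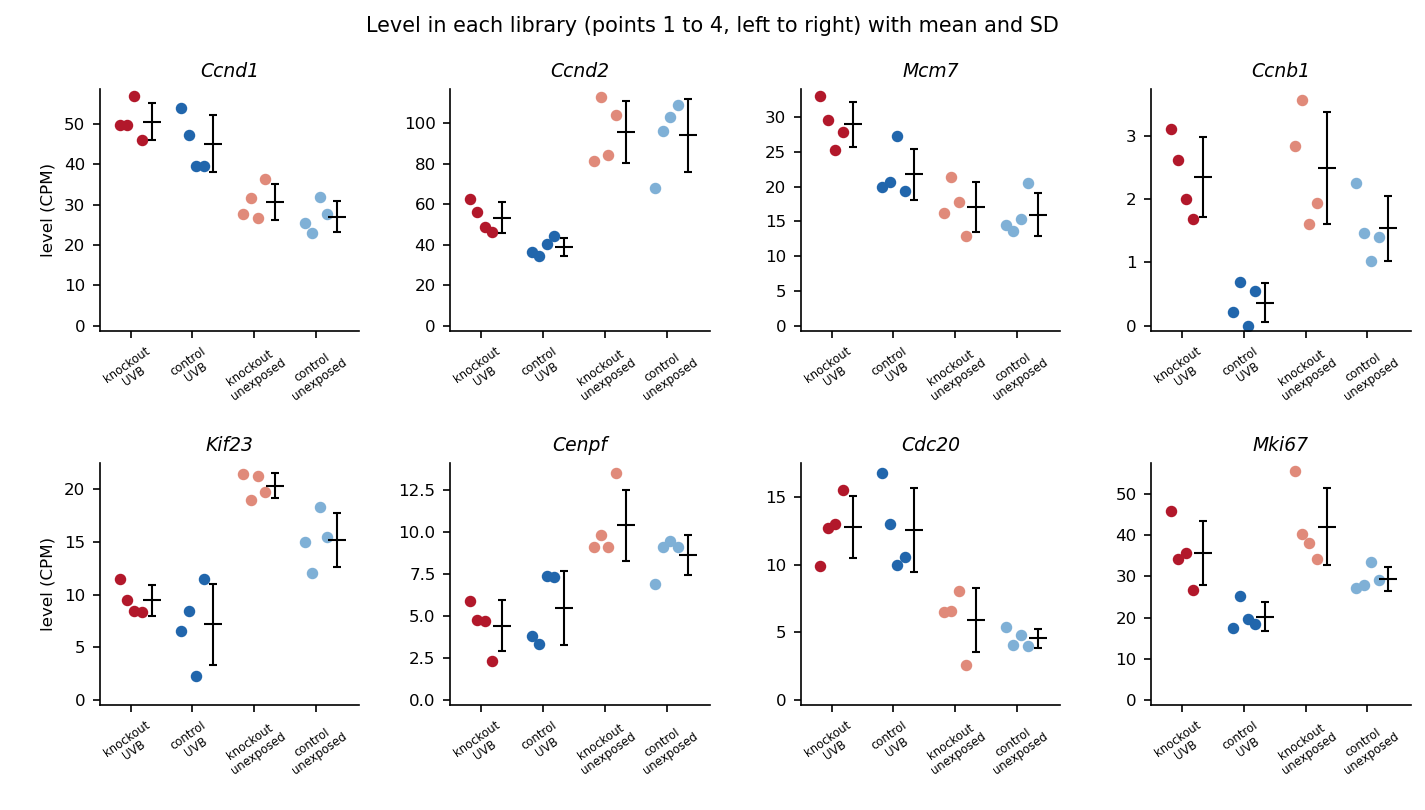
Level in CPM of 8 genes in each library (points, library 1 to 4 from left to right) with the mean and SD of each group of 4. Ccnd1 and Cdc20 were higher in every exposed library than in the unexposed libraries of the same genotype, Ccnd2 and Kif23 were lower, and Ccnb1 lay at 0 to 0.686 CPM in exposed controls.

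Of the 7 cyclin, kinase and G2/M factor genes, Ccnb1 fell in controls and none passed in knockouts. Ccnb1, the mitotic cyclin B1, stood at 0.222, 0.686, 0.00 and 0.556 CPM in exposed controls against 2.26, 1.46, 1.03 and 1.40 CPM in unexposed controls, from 0 to 30 counts per exposed library. Whether each read pair was counted as 2 is not stated, so a count need not be 1 fragment. The groups did not overlap, and Ccnb1 fell by 2.06 (SE 0.67, edgeR adjusted p = 0.0211). The call was lost without exposed library 1 (adjusted p = 0.051), without unexposed library 1 (adjusted p = 0.062) and when only the 2 groups compared were fitted (adjusted p = 0.123), and limma voom gave -2.92 (adjusted p = 0.0159). In exposed knockouts it stood at 3.10, 2.62, 2.0 and 1.69 CPM against 2.84, 3.56, 1.61 and 1.94 CPM in unexposed knockouts, which overlap (-0.08, adjusted p = 0.946). Ccna2, the S phase and G2 cyclin, differed by -0.28 in knockouts and -0.56 in controls, and Cdk1, the mitotic kinase, by -0.38 and -0.49, without passing. The other members of the role, Ccnb2, Cdc25c, Foxm1 and Mybl2, gave -0.69 to -0.13 in knockouts and -1.23 to 0.81 in controls. In controls Ccnb2 (0.81, adjusted p = 0.0531) was called as higher with DESeq2 (0.0318) and a stricter count filter (0.036). It was also called without exposed library 1 (0.0304) or unexposed library 1 (0.0184). Cdc25c was called as lower with limma voom (-2.68, 0.0268) and without exposed library 3 (-1.92, 0.0395), and Mybl2 without exposed library 2 (-1.07, 0.0318). None of the 7 genes for mitotic kinases and the spindle checkpoint passed in either genotype, with log2 differences of -0.93 to 0.24 in knockouts and -1.61 to 0.36 in controls. Plk1, the polo-like kinase of mitotic entry, stood at 0.00, 1.01, 0.00 and 0.904 CPM in exposed controls against 1.45, 1.39, 1.15 and 1.86 CPM in unexposed controls (-1.61, SE 0.90, adjusted p = 0.179), and differed by -0.42 in knockouts (adjusted p = 0.778). In controls limma voom called it (-3.62, adjusted p = 0.0114).

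The spindle motor and centromere genes were the role with the lowest medians, -0.74 in knockouts and -0.73 in controls, and 3 of 6 fell in each. Kif23, a kinesin of the central spindle, stood at 11.5, 9.5, 8.45 and 8.38 CPM in exposed knockouts against 21.4, 19.0, 21.2 and 19.7 CPM in unexposed knockouts. In controls it stood at 6.51, 8.44, 2.28 and 11.5 CPM when exposed against 15, 12.0, 18.3 and 15.5 CPM in unexposed controls. No exposed library reached an unexposed one of its genotype, and Kif23 fell by 1.10 in knockouts (SE 0.30, edgeR adjusted p = 0.00642) and by 1.08 in controls (SE 0.30, adjusted p = 0.0072). Cenpe, a kinetochore motor, stood at 5.59, 4.83, 6.17 and 3.35 CPM in exposed knockouts against 9.47, 10.1, 7.04 and 9.84 CPM in unexposed knockouts. Among controls, the exposed had 4.05, 5.26, 4.14 and 4.87 CPM against 7.57, 4.99, 10.8 and 8.57 CPM in the unexposed, where exposed library 2 passed unexposed library 2. Cenpe fell by 0.87 in knockouts (SE 0.26, adjusted p = 0.0119) and by 0.80 in controls (SE 0.26, adjusted p = 0.0189), and the control call was lost without unexposed library 3 (adjusted p = 0.0858) and with limma voom (0.0505). Cenpf, a large kinetochore protein, stood at 5.88, 4.77, 4.68 and 2.30 CPM in exposed knockouts against 9.07, 9.82, 9.11 and 13.5 CPM in unexposed knockouts, and fell by 1.23 (SE 0.30, adjusted p = 0.00293). In controls its difference of -0.66 did not pass (adjusted p = 0.0903), and it was called with library size alone (-0.82, 0.0454), with limma voom (-0.80, 0.0429) and without exposed library 3 (0.0412) or 4 (0.0437). Kif11, the motor that separates spindle poles, averaged 2.37 ± 0.635 CPM in exposed and 4.52 ± 1.14 CPM in unexposed controls (SD, n = 4 each) and fell by 0.92 (SE 0.31, adjusted p = 0.0239). That call was lost without exposed library 3 (adjusted p = 0.058) or unexposed library 1 (0.0719) or 2 (0.0656), with limma voom (0.0637) and with only the 2 groups fitted (0.0641), and in knockouts Kif11 differed by -0.61 (adjusted p = 0.145). Kif20a and the centromeric histone gene Cenpa did not pass in either genotype.

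Of the genes of mitotic exit and the chromosome markers, Cdc20 and Gtse1 rose in both genotypes, Ube2c rose in controls, and Mki67 and Top2a fell in controls. Cdc20, the activator of the anaphase-promoting complex, stood at 9.94, 12.7, 13 and 15.5 CPM in exposed knockouts against 6.53, 6.55, 8.07 and 2.56 CPM in unexposed knockouts. In exposed controls it stood at 16.8, 13, 9.96 and 10.6 CPM against 5.4, 4.05, 4.82 and 3.97 CPM in unexposed controls. Each exposed library exceeded each unexposed one of its genotype, and Cdc20 rose by 1.11 in knockouts (SE 0.28, edgeR adjusted p = 0.00364) and by 1.46 in controls (SE 0.28, adjusted p = 0.000319). Gtse1, a microtubule-binding protein that restrains p53, averaged 6.25 ± 0.973 CPM in exposed and 2.80 ± 1.14 CPM in unexposed knockouts, and 4.60 ± 1.16 CPM in exposed and 1.99 ± 1.31 CPM in unexposed controls (SD, n = 4 each). It rose by 1.15 (SE 0.43, adjusted p = 0.0437) and by 1.20 (SE 0.43, adjusted p = 0.0346), and of 8 fits without a library each it kept its call in 2 in knockouts (adjusted p 0.0374 to 0.135) and in 3 in controls (0.0165 to 0.11). Both calls were lost with library size alone (0.0993 and 0.102) and with no count filter (0.0641 and 0.0504), the knockout call with upper-quartile scaling (0.0634), and the control call with only the 2 groups fitted (0.0885). Ube2c, the ubiquitin-conjugating enzyme of that complex, averaged 5.12 ± 1.54 CPM in exposed and 2.59 ± 0.713 CPM in unexposed controls and rose by 0.98 (SE 0.33, adjusted p = 0.0252). Its call was lost without exposed library 3 (adjusted p = 0.0816) or unexposed library 3 (0.0888), with library size alone (0.0891), with no count filter (0.075) and with only the 2 groups fitted (0.0572), and the difference in knockouts was 0.28 (adjusted p = 0.584). The Tnnc2 gene on the opposite strand covers 22.8% of the Ube2c exon bases. Mki67, which encodes the proliferation antigen Ki-67, stood at 17.5, 25.2, 19.7 and 18.4 CPM in exposed controls against 27.1, 27.8, 33.5 and 29.1 CPM in unexposed controls and fell by 0.54 (SE 0.18, adjusted p = 0.0203). Top2a, the topoisomerase that untangles chromosomes, stood at 19.9, 23.2, 20.1 and 24.8 CPM in exposed controls against 36.7, 28.6, 35.1 and 27.7 CPM in unexposed controls and fell by 0.54 (SE 0.19, adjusted p = 0.0273). Neither group of control libraries overlapped the other for these 2 genes. The Mki67 call was lost without exposed library 1 (adjusted p = 0.056) or unexposed library 3 (0.0593), and the Top2a call without exposed library 1 (0.0619) or 3 (0.0608) or unexposed library 1 (0.0815) or 3 (0.0631). In knockouts Mki67 differed by -0.24 (adjusted p = 0.341) and Top2a by -0.45 (adjusted p = 0.0672), which was called with DESeq2 (0.0286), upper-quartile scaling (0.0276), no count filter (0.0471) and without exposed library 1 (0.0303).

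**Figure D3:**
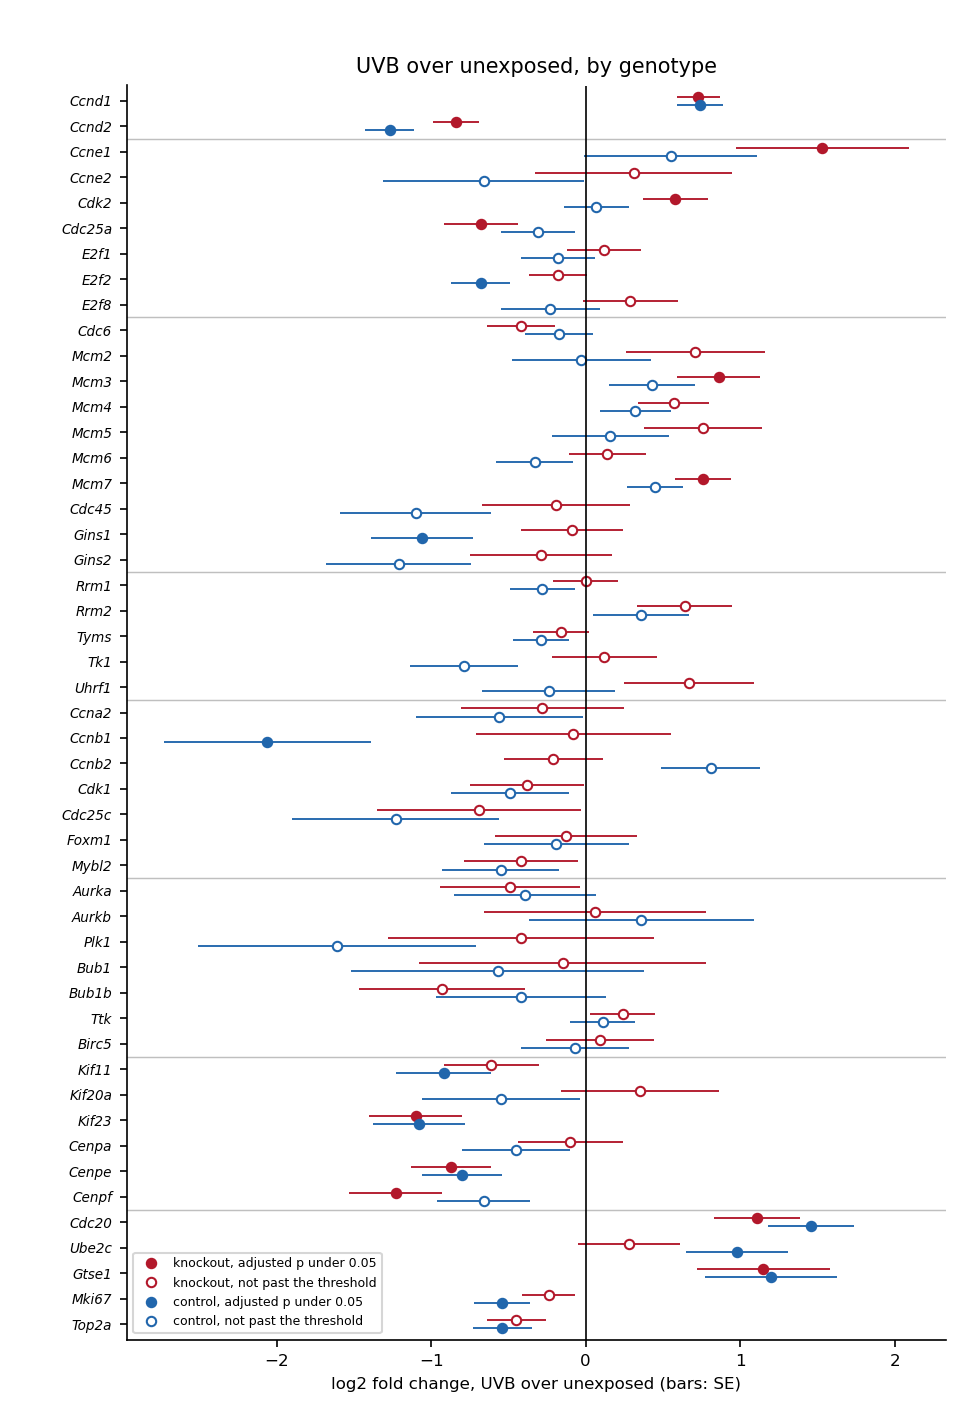
Log2 fold change of UVB over unexposed for the 49 genes in knockouts and controls, with SE bars; filled points passed an adjusted p of 0.05, and grey lines separate the roles. Ccnd1, Cdc20 and Gtse1 lay above 0 and Ccnd2, Kif23 and Cenpe below 0 in both genotypes with filled points.

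Across the 49 genes the 2 UVB responses, which share no library, had a Pearson correlation of 0.67, against 0.63 across the 17741 tested genes, where genes of the same libraries are not independent. The sign was the same in 38 genes, opposite in 10, and 1 gene (Rrm1) was at 0.00 in knockouts. Gene length moved with the response. The longer the genomic span from the first to the last annotated base in GENCODE M21 (GRCm38), the lower was the UVB fold change, with a Spearman correlation of -0.53 in knockouts and -0.41 in controls across the 49 genes. The same held across 14593 protein-coding genes tested (-0.45 and -0.29). The 15 genes of at least 25 kb, which include Cenpe (61.1 kb), Cenpf (47.5 kb), Kif11 (45.5 kb), Kif23 (30.9 kb) and Ccnd2 (27.0 kb), had medians of -0.42 in knockouts and -0.57 in controls. The 13 genes under 10 kb, which include Cdc20 (4.45 kb), Mcm7 (7.84 kb) and Ccnd1 (9.99 kb), had medians of 0.35 and 0.36. All protein-coding genes gave -0.32 and -0.30 for the long class and 0.41 and 0.30 for the short class, so the pattern is not particular to these genes, and the limits of 25 and 10 kb were chosen after the values were seen. Ccnb1, a short gene at 7.92 kb, had the lowest fold change of the 49 in controls. The part of span in the changes of single genes was not tested.

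**Figure D4:**
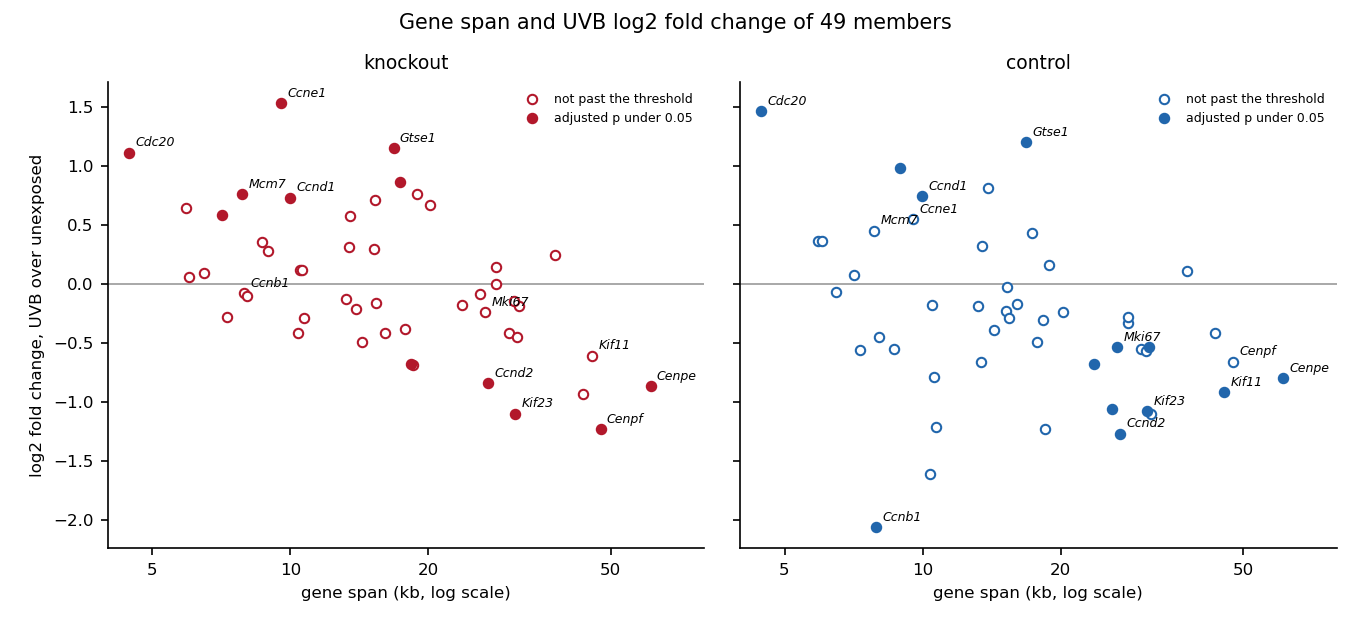
Gene span in kb (log axis) against the log2 fold change of UVB over unexposed for the 49 genes in knockouts and in controls; filled points passed an adjusted p of 0.05. The genes of 25 kb and more lay mostly below 0 in both genotypes, and Ccnb1 was the lowest point in controls.

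The comparison of knockout with control after UVB asked which transcripts differed between the genotypes in irradiated epidermis. Of 49 genes 2, Mki67 and Ccnb1, were higher in knockouts (4.08%), against 2.36% of all tested genes, and none was lower, against 2.32%. The differences leaned one way, with 43 of 49 above 0 and a median of 0.62, against 53.6% of genes above 0 and a median of 0.04 over all tested genes. At an unadjusted p under 0.05 there were 20 genes (40.8%), against 20.3% of all tested genes. For the wider list of 137 other cell cycle genes set out below, that share was 20.4%. The count of genes called depended on single libraries and on scaling. It was 9 without exposed control library 2, 3 without exposed control library 4, 1 without exposed control library 1 or exposed knockout library 1 or 2, 6 with DESeq2 (with E2f8, Mcm3, Gins1 and Tk1 added) and 10 with scaling by library size alone.

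Mki67 stood at 45.8, 34.2, 35.6 and 26.8 CPM in exposed knockouts against 17.5, 25.2, 19.7 and 18.4 CPM in exposed controls. Every knockout library was above every control library, and Mki67 was 0.82 higher on the log2 scale (SE 0.18, edgeR adjusted p = 0.0106), a call that held in all 8 fits without a library (0.67 to 0.96) and under the 8 other settings. Ccnb1 stood at 3.10, 2.62, 2.0 and 1.69 CPM in exposed knockouts against 0.222, 0.686, 0.00 and 0.556 CPM in exposed controls. These groups did not overlap either, with 483 counts in the 4 knockout libraries against 54 in the 4 control libraries, and Ccnb1 was higher by 2.67 (SE 0.68, adjusted p = 0.0279; limma voom gave 3.52, adjusted p = 0.0242). Its call was lost without exposed control library 1 (adjusted p = 0.0693), without exposed knockout library 1 (0.0766) or 2 (0.0715), and when only the 2 groups were fitted (0.124). Ccnb2, the other B cyclin, went the opposite way without passing, at 5.01, 3.58, 4.84 and 4.01 CPM in exposed knockouts against 4.02, 4.99, 6.52 and 8.13 CPM in exposed controls (-0.44, adjusted p = 0.483).

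The helicase and origin genes had the largest median of any role after UVB (0.87 over 10 genes tested), and none of them passed. DESeq2 called Mcm3 and Gins1 (adjusted p = 0.0379 each), and scaling by library size alone called Mcm3 (0.0355), Gins1 (0.028) and Mcm6 (0.0472). At an unadjusted p under 0.05, 8 of the 10 were above 0 and Cdc6 was below it (-0.62, adjusted p = 0.109), against 11.1% of all tested genes above 0. Mcm3 stood at 11.2, 8.82, 10.7 and 6.91 CPM in exposed knockouts against 3.80, 5.70, 6.39 and 4.80 CPM in exposed controls, without overlap (0.86, SE 0.27, edgeR adjusted p = 0.0749). Gins1 stood at 11.9, 6.97, 7.79 and 6.36 CPM in exposed knockouts against 2.33, 7.28, 1.95 and 4.52 CPM in exposed controls, where control library 2 lay among the knockouts (1.04, SE 0.33, adjusted p = 0.0767). Mcm2 differed by 1.01 (adjusted p = 0.208) and Mcm6 by 0.62 (adjusted p = 0.158). Of the regulators, E2f8 stood at 7.80, 7.18, 13 and 11.6 CPM in exposed knockouts against 4.05, 7.92, 1.89 and 5.21 CPM in exposed controls (1.05, SE 0.32, adjusted p = 0.0617), and control library 2 lay above 2 of the knockout libraries. It was called with DESeq2 (0.0268) and with library size alone (0.0219). Cdk2 differed by 0.63 (adjusted p = 0.0837), E2f1 by 0.61 (0.15), Ccne1 by 1.28 (0.202), Ccne2 by 0.72 (0.6) and Cdc25a by -0.25 (0.621). Exposed control library 2 was the highest of its group for Gins1, E2f8, Cdk2, Mcm2 and Ccne1, and without it Gins1 gave 1.52 (adjusted p = 0.00703), E2f8 1.43 (0.0104) and Cdk2 0.81 (0.0292). Ccnd2 differed by 0.46 (adjusted p = 0.0921), Ccnd1 by 0.16 (0.588), Rrm2 by 0.63 (0.265), Ccna2 by 0.81 (0.433), Cdk1 by 0.62 (0.381), Plk1 by 1.41 (0.403), Cdc20 by 0.02 (0.977) and Top2a by 0.22 (0.564).

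In unexposed epidermis none of the 49 genes passed, against 0.964% of all tested genes higher and 1.14% lower in knockouts, and none passed with DESeq2 or in any fit that left out a library. At an unadjusted p under 0.05 there was 1 gene, Mki67 (2.04%), against 12.4% of all tested genes. The median was 0.28, against 0.00 over all tested genes, and 44 of 49 genes were above 0, against 50.3% of all genes. Mki67 stood at 55.5, 40.2, 38.2 and 34.1 CPM in unexposed knockouts against 27.1, 27.8, 33.5 and 29.1 CPM in unexposed controls, without overlap (0.52, SE 0.18, edgeR adjusted p = 0.156). Mybl2, which encodes B-MYB, stood at 5.45, 6.18, 6.98 and 10.2 CPM in unexposed knockouts against 5.04, 3.04, 5.19 and 3.7 CPM in unexposed controls (0.76, SE 0.38, adjusted p = 0.425), again without overlap. The next by p were Ccnb2 (0.58), Cdc6 (-0.37), E2f8 (0.52) and Mcm3 (0.43), with adjusted p-values of 0.508 to 0.612. Ccnb1 differed by 0.69, Cdk1 by 0.51, Ccna2 by 0.53, Plk1 by 0.22, Cdc20 by 0.38 and Top2a by 0.13. Ccnd1 differed by 0.18, Ccnd2 by 0.02, Ccne1 by 0.30, Ccne2 by -0.26, Cdc25a by 0.12, E2f1 by 0.31, Mcm2 by 0.27, Mcm6 by 0.16 and Rrm2 by 0.35. Across the 49 genes the genotype differences after UVB and unexposed, which share no library, had a Pearson correlation of 0.32, against 0.34 across all tested genes.

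**Figure D5:**
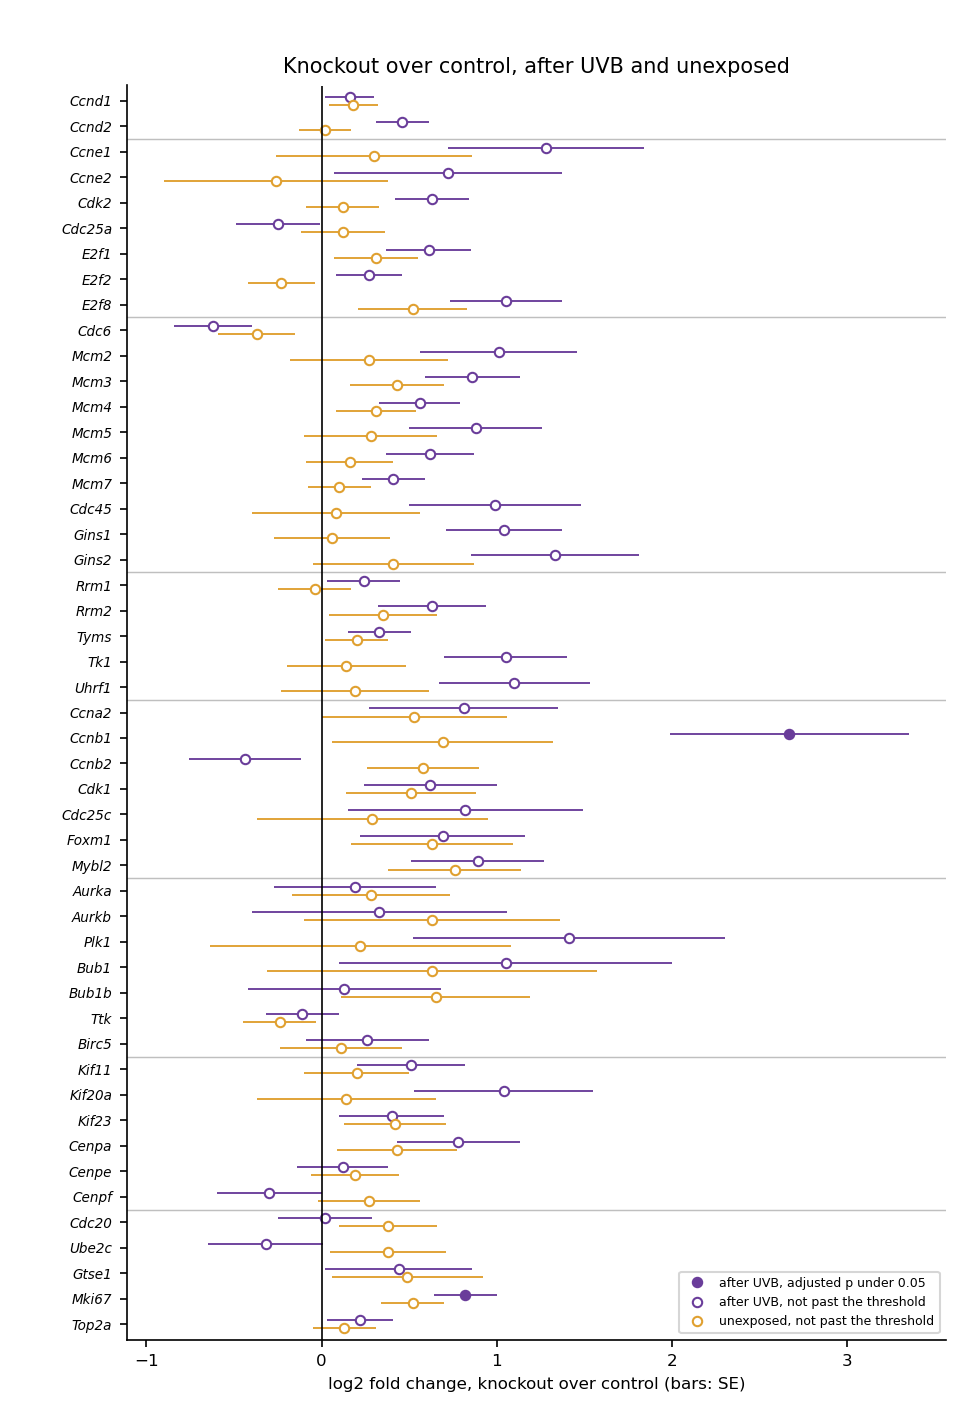
Log2 fold change of knockout over control for the 49 genes after UVB and unexposed, with SE bars; filled points passed an adjusted p of 0.05. Most points lay above 0 in both states, and Ccnb1 and Mki67 after UVB were the 2 filled points.

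Whether the genotypes responded differently to UVB was tested as the difference of the 2 responses, knockout minus control. No member and none of the 17741 genes passed (0.00% higher and 0.00% lower), and DESeq2 called 31 genes over the table. At an unadjusted p under 0.05 there were 3 members (6.12%), against 5.88% of all tested genes. They were Ccnb2 (-1.02, SE 0.45, edgeR adjusted p = 0.797), Ccnb1 (1.97, SE 0.91, adjusted p = 0.835) and Gins1 (0.97, SE 0.47, adjusted p = 0.844). Ccnd2 (0.43), Tk1 (0.91) and E2f2 (0.50) followed, with adjusted p-values of 0.855 to 0.88. For the other fixed genes the difference was 0.30 for Mki67, 0.09 for Top2a, 0.11 for Cdk1, 1.19 for Plk1, -0.36 for Cdc20, 0.28 for Ccna2, 0.74 for Mcm2, 0.46 for Mcm6 and 0.27 for Rrm2. It was 0.98 for Ccne1, 0.98 for Ccne2, -0.02 for Ccnd1, 0.31 for E2f1, 0.53 for E2f8 and -0.37 for Cdc25a. A gene called in 1 genotype only, such as Ccnb1, Mcm7 or Cenpf, is therefore not shown to respond differently between genotypes.

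A wider list of 137 other cell cycle genes was set beside these. After UVB 19 rose (13.9%) and 20 fell (14.6%) in knockouts, and 15 rose (10.9%) and 29 fell (21.2%) in controls. Over all tested genes the shares were 18.1% and 14.1% in knockouts and 17.7% and 18.0% in controls. Cdkn1a encodes the p53 target p21. Cdkn1a stood at 689, 975, 900 and 1240 CPM in exposed knockouts against 301, 264, 410 and 260 CPM in unexposed knockouts and rose by 1.62 (SE 0.18, edgeR adjusted p = 1.23e-06). Exposed controls had 1480, 1110, 1140 and 962 CPM against 339, 338, 304 and 327 CPM in unexposed controls and rose by 1.84 (SE 0.18, adjusted p = 1.78e-07). The p53 targets Ccng1 (2.33 in knockouts, 2.30 in controls) and Sfn (1.67 and 1.82), and the replication clamp gene Pcna (1.37 and 1.24), rose in both genotypes, as did the checkpoint gene Bub3 (0.98 and 0.78). Of 15 inhibitor and antiproliferative genes in the list, 7 rose and none fell in knockouts, and 7 rose and 3 fell in controls. The growth arrest gene Gadd45a was lower in exposed controls, at 40.2, 34.3, 44.7 and 32.5 CPM against 73.1, 57.1, 87.0 and 75.9 CPM in unexposed controls. In knockouts its values overlapped, at 28.6, 30.8, 26.4 and 32.6 CPM exposed against 25.7, 27.9, 40.4 and 42.4 CPM unexposed. Btg2, an antiproliferative p53 target, rose by 0.50 in knockouts (adjusted p = 0.0145) and by 0.63 in controls (adjusted p = 0.00258), and the knockout call was lost without exposed library 4 (0.31, adjusted p = 0.146). The damage kinase gene Atr fell by 0.87 and 0.91, and Wee1, which holds Cdk1 inactive, by 1.44 (adjusted p = 0.00263) and 0.96 (adjusted p = 0.0327). The Wee1 call in controls held in 2 of 8 fits without a library, with adjusted p up to 0.0897. The maintenance methyltransferase gene Dnmt1 fell by 0.55 in knockouts (adjusted p = 0.00446) and by 0.91 in controls (adjusted p = 3.74e-05). Cdkn1b, the inhibitor p27, fell by 0.70 in controls (adjusted p = 0.0399), held that call in 3 of 8 fits without a library (adjusted p up to 0.116), and differed by -0.42 in knockouts (adjusted p = 0.237).

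Between the genotypes, 2 of the 137 rose and 2 fell in exposed knockouts (1.46% each), and none rose and 2 fell in unexposed knockouts (1.46%). Over all tested genes 2.36% rose and 2.32% fell after UVB, and 0.964% rose and 1.14% fell unexposed. At an unadjusted p under 0.05 after UVB there were 28 of the 137 (20.4%), against 20.3% of all tested genes. The median log2 fold change of the 137 was 0.31 and 76.6% were above 0, against 0.04 and 53.6% over all tested genes. Cdkn2c, the Cdk4 and Cdk6 inhibitor p18, stood at 20, 14.4, 20.6 and 13.8 CPM in exposed knockouts against 21.1, 41.6, 32.5 and 34.6 CPM in exposed controls. Unexposed it stood at 20.4, 17.6, 23.7 and 17.1 CPM in knockouts against 42.4, 38.8, 55.4 and 45.5 CPM in controls. It was lower in every knockout library than in every control library of the same state, and fell by 0.91 after UVB (SE 0.19, edgeR adjusted p = 0.00939, lost with scaling by library size alone at 0.0641) and by 1.21 unexposed (SE 0.19, adjusted p = 0.00166). Gadd45a, a growth arrest gene, fell by 1.10 in unexposed knockouts (SE 0.17, adjusted p = 0.00114), with 25.7, 27.9, 40.4 and 42.4 CPM against 73.1, 57.1, 87.0 and 75.9 CPM in unexposed controls. After UVB Btg2 was lower by 0.53 (adjusted p = 0.0481), and Tubb5, a tubulin (0.95, adjusted p = 0.0272), and the mitotic phosphatase gene Cdc25b (0.77, adjusted p = 0.0482) were higher. These 3 calls rested on single libraries, being kept in 3, 2 and 3 of 8 fits without a library, with adjusted p up to 0.152 for Btg2, 0.0897 for Tubb5 and 0.15 for Cdc25b. The Btg2 call was also lost with library size alone (0.238), limma voom (0.053) and no count filter (0.0598). It was lost too with no robust estimation (0.0564) and only the 2 groups fitted (0.124). The Cdc25b call was lost with limma voom (0.077), no robust estimation (0.0534), upper-quartile scaling (0.0537) and only the 2 groups fitted (0.164). Cdkn1a, Cdkn1b, Pcna and Wee1 did not pass between the genotypes in either state. In the difference of responses none of the 137 passed.

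Cell type markers moved with the genotype too, and in bulk tissue fewer cells of a type and less RNA per cell cannot be told apart. The summed level of 11 basal keratinocyte markers was 4780 to 6700 CPM in exposed knockouts against 1990 to 4100 CPM in exposed controls, and 3050 to 6820 CPM in unexposed knockouts against 2060 to 2920 CPM in unexposed controls. Of these 11, 5 were higher in knockouts after UVB and 3 unexposed, and none was lower, where 2.36% of all tested genes were higher and 2.32% lower after UVB and 0.964% and 1.14% unexposed. Krt14 made up much of the basal sum, at 3010 to 4890 CPM in exposed knockouts against 1040 to 2870 CPM in exposed controls. Krt15 overlapped unexposed, at 47.6 to 91.3 CPM in knockouts against 71.6 to 97.2 CPM in controls. Log2 differences were above 0 in 10 of the 11 unexposed and in all 11 after UVB. The summed level of 12 spinous and granular markers was 38000 to 53200 CPM in exposed knockouts against 44200 to 78500 CPM in exposed controls, and 40500 to 54300 CPM in unexposed knockouts against 51200 to 63500 CPM in unexposed controls. Of the 11 of these that were tested, 2 were lower in knockouts after UVB and none unexposed. The Langerhans cell list of 10 summed to 958 to 1190 CPM in exposed knockouts against 740 to 958 CPM in exposed controls, with 5 higher. Of these 10, 9 had a log2 difference above 0. Epcam went the other way, at 254 to 345 CPM in exposed knockouts against 355 to 420 CPM in exposed controls. The fibroblast list of 8 summed to 105 to 128 CPM in exposed knockouts against 28.9 to 56.8 CPM in exposed controls. Unexposed, it summed to 116 to 371 CPM in knockouts against 53.0 to 91.1 CPM in controls. The fibroblast sum came mostly from Postn, while Col1a1 stayed at or under 4.97 CPM in every library. The neutrophil list of 7 summed to 329 to 584 CPM in exposed knockouts against 672 to 1100 CPM in exposed controls, and of its 5 tested genes 1 was higher in knockouts and none lower. The neutrophil sum came mostly from S100a8 and S100a9, while Ly6g was at 0 in 15 of 16 libraries and Retnlg in 13. Mmp9 of the same list went the other way, at 13.5 to 20.3 CPM in exposed knockouts against 1.15 to 5.95 CPM in exposed controls. The endothelium list of 7 summed to 29.2 to 50.4 CPM in exposed knockouts against 9.13 to 25.6 CPM in exposed controls, and to 53.4 to 82.2 CPM in unexposed knockouts against 22.8 to 32.0 CPM in unexposed controls, and in each state 1 of its 4 tested genes was higher in knockouts. Its sum came mostly from Flt1, and Cdh5 was at 0 in 14 of 16 libraries. The monocyte and macrophage list of 9 summed to 33.1 to 41.1 CPM in unexposed knockouts against 17.9 to 29.4 CPM in unexposed controls, with 1 of 7 tested genes higher. The melanocyte list of 8 summed to 23.2 to 39.1 CPM in unexposed knockouts against 41.3 to 79.0 CPM in unexposed controls. Unexposed, 14 of 15 tested hair matrix and shaft genes (median -1.34) and 7 of 8 sebaceous gland genes (median -1.41) were below 0. No gene of these last 3 lists passed unexposed. The 5 erythroid genes summed to at most 5.35 CPM in any library, with Hba-a2 at 0 in all 16. At equal depth the exposed knockouts had 19227 to 21547 detected genes against 16993 to 19349 in exposed controls, where library 2, the one with the highest summed level of the 50 genes in its group (452 CPM against 365, 366 and 428 CPM), had the most. Mitochondrial transcripts took 5.44% to 5.99% of counts in exposed knockouts against 5.24% to 9.65% in exposed controls. In unexposed knockouts they took 5.12%, 5.67%, 4.33% and 10.18%, with library 4 the highest of all 16, and in unexposed controls 5.62% to 8.57%. The part of these in the differences between genotypes and in the UVB calls was not tested.

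Marker lists moved with UVB as well. Of the 11 basal keratinocyte markers 2 rose and 2 fell in knockouts, and 2 rose and 4 fell in controls. Their log2 differences ran from -1.32 to 1.38 in knockouts and from -1.97 to 1.48 in controls. Of the 11 tested spinous and granular markers 3 rose and 2 fell in knockouts, and 3 rose and 1 fell in controls. The neutrophil list summed to 329 to 584 CPM in exposed knockouts against 97.2 to 204 CPM in unexposed knockouts, and to 672 to 1100 CPM in exposed controls against 69.5 to 237 CPM in unexposed controls. Of its 5 tested genes 2 rose in knockouts and 3 in controls. S100a8 and S100a9 again made up most of these sums. The hair matrix and shaft list of 15 tested genes summed to 183 to 2030 CPM in exposed knockouts against 235 to 500 CPM in unexposed knockouts, and 4 rose. In controls it summed to 658 to 2770 CPM in exposed against 400 to 1330 CPM in unexposed epidermis, where none rose and 1 fell. The sebaceous gland list of 9 summed to 114 to 737 CPM in exposed knockouts against 109 to 222 CPM in unexposed knockouts, and to 119 to 1360 CPM in exposed controls against 193 to 444 CPM in unexposed controls. Of its 8 tested genes 2 rose in knockouts and none in controls. The endothelium list, with the sums above, had 1 of 4 tested genes that fell in knockouts and 2 in controls, and the monocyte and macrophage list 1 and 2 of 7 that rose. These counts stand beside 18.1% of all tested genes that rose and 14.1% that fell in knockouts, and 17.7% and 18.0% in controls. The part of these cell types in the UVB responses was not tested.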

How the data were processed

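Bulk RNA was sequenced from mouse epidermis in 16 libraries, 4 in each of 4 groups taken from the labels. The deposited values are raw counts per Ensembl gene, and whether a read pair was counted as 1 or 2 is not stated. The authors made these counts with tools that the submitters' processing notes name as FastQC, STAR, HTSeq and DESeq2, without versions, and per the labels' protocols the libraries came from a directional (strand-marking) kit. The genome build is not given in the sources used here, and whether counting used strand is not stated. Without strand, reads of a gene and of an overlapping gene on the other strand cannot be told apart.

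From the counts, genes were filtered with filterByExpr (17741 of 49585 kept), scaled by TMM and fitted with edgeR 4.0.16 (glmQLFit, robust, 1 mean per group, all 16 libraries) in R 4.3.3. Two-sided quasi-likelihood p-values were adjusted by Benjamini-Hochberg over all tested genes, with a threshold of 0.05. Every adjusted p in the text is from this edgeR fit or, where a left-out library or another setting is named, from that fit. CPM values are counts over the TMM-scaled library size of the tested genes, and SE is the absolute log2 fold change over the square root of the F statistic. The fit was tested on simulated data. The libraries held 33.0 to 53.3 M counts, and edgeR's common coefficient of variation between replicates was 0.445, so genes of a few CPM have wide errors. No pair of replicates agreed within counting noise (lowest chi-square per degree of freedom 41.8). As libraries cannot be tied to animals, their spread may be technical in part, and p-values reflect that spread alone. Correlations across genes describe these libraries and are not tests.

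The 50 genes, their roles, the 137 other genes, the markers and the motifs were chosen with earlier results of these data known. Values are given for every gene that passed, for those with the smallest p up to 6 where fewer passed, and for a fixed set of 17 in each comparison. Of the other list, up to 6 passing genes by smallest p and 5 fixed genes are named, with Gadd45a added for UVB. Gene models are GENCODE M21 and promoter windows RefSeq. Alternatives were upper-quartile scaling, library size alone, DESeq2 1.42.0, limma 3.58.1 voom, 2 other count filters, fitting only the 2 groups compared, no robust estimation and leaving out each library.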

Additional observations from a re-analysis of the deposited data

Results flagged for a closer look

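In each group of 4 libraries, each gene was examined for a library standing far from the other 3 by Dixon's test of the gap over the group's range at its 95% limit. Of 196 groups examined, leaving out those with the same value in all 4 libraries, 12 were marked, and chance marks about 1 in 20. In exposed knockouts, Rrm1 (24.7 CPM) and Foxm1 (5.96 CPM) were high in library 1, and Cdc45 (3.78 CPM) and Aurka (1.09 CPM) were low in library 4. In exposed controls, Ccne2 (0.00 CPM) was low and Mcm7 (27.2 CPM) was high in library 3, and Cenpa (1.33 CPM) and Gtse1 (2.88 CPM) were low in library 1. In unexposed knockouts, Cenpf (13.5 CPM) and Top2a (48.3 CPM) were high in library 4. In unexposed controls, Cenpf (6.89 CPM) was low in library 1 and Rrm2 (2.64 CPM) was low in library 3.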

How the results depend on the processing

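No paired analysis was possible because the labels give no replicate numbers that link libraries across groups. Of knockout against control after UVB, 830 genes and 2 of the 49 were called, against 1516 and 6 with DESeq2, 1426 and 10 with library size alone, and 1 of the 49 with only the 2 groups fitted. Leaving out single libraries gave 419 to 1356 genes and 1 to 9 of the 49. The median of the 49 was 0.62, and 0.88 with library size alone. Unexposed, 373 genes were called, 742 with DESeq2 and 134 to 435 without single libraries. For UVB in controls, the median of -0.33 became -0.51 with library size alone and ran from -0.53 to -0.26 without single libraries, with 8 to 16 of the 49 called, and for UVB in knockouts 7 to 11 were called. For the difference of responses no gene was called, against 31 with DESeq2, 2 with no count filter and 0 to 2 without single libraries. Library size alone moved the median of all genes to 0.16 unexposed and 0.29 after UVB between genotypes, to -0.19 for UVB in controls and to 0.14 for the difference. The share of calls that were higher then became 74.1% unexposed (from 45.8%), 87.4% after UVB (50.4%) and 36.1% for UVB in controls (49.6%), and upper-quartile scaling gave 57.0% unexposed. limma voom moved the median for UVB in controls to -0.13. The causes were not tested. Over the 49 genes, the fits without 1 library lost 51 calls and gained 24, each counted per gene, comparison and fit. Low counts limit Ccnb1, Plk1 and Bub1 most.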

Other observations

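Even numbers were more frequent than odd ones among the deposited counts. Of 154 counts of the 50 genes between 2 and 101, 68.2% were even, and over all genes the share was 68.8%.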
